A study of Mus musculus with 6 samples.

Results

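The S-phase and DNA replication genes examined here are 49 genes taken by symbol from a list of replication factors, and all 49 were found among the 24421 genes of the deposited count table and passed the low-count filter that left 13411 genes for testing. RNA was sequenced from Lin-CD117+ bone marrow cells of female CByB6F1 mice aged 2-5 months. The sort keeps KIT-bearing cells without lineage antigens, a mixture of blood stem cells and early progenitors. Of the 6 libraries, 3 came from untreated mice (untreated pools 1 to 3) and 3 from mice treated with RUX, the series' ruxolitinib (RUX pools 4 to 6), a JAK1/JAK2 inhibitor that blocks signals from cytokine receptors. Each library was made from cells of 2 to 3 mice of 1 group, pooled before RNA extraction, so 1 value stands for a pool and not for a mouse. The untreated mice are titled normal, and the labels name no vehicle, dose or length of treatment.

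DNA replication is prepared in G1, when the origin recognition complex, CDC6 and CDT1 load the ring of MCM proteins onto origins. At S-phase entry the ring becomes an active helicase by joining CDC45 and the GINS complex, primase and the DNA polymerases copy both strands, and the PCNA clamp holds the polymerases on DNA. Most of these genes are transcribed in late G1 and S under E2F factors, which is why they are used as markers of cycling cells. In bone marrow, cytokines that signal through JAK kinases drive progenitors into cycle, whereas long-term stem cells divide rarely. The comparison of treated with untreated mice therefore asks whether the progenitor fraction as a whole carried a different amount of the replication program. In these bulk pools, fewer cells in S phase and less replication RNA per cell cannot be told apart.

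None of the 49 genes passed the test of RUX against untreated pools. edgeR's quasi-likelihood test gave an adjusted p of 1 for each, with 0 of 49 called, and over all tested genes it called 0 (0.0%). At an unadjusted p under 0.05 there were 0 members, against 1.89% of all tested genes (0.85% higher and 1.04% lower with RUX), and the smallest unadjusted p of a member was 0.115, for Orc1. DESeq2 and limma-voom also called 0 genes, with 320 and 262 genes but 0 members at an unadjusted p under 0.05. For every one of the 49 genes the RUX and untreated values overlapped, whereas the groups did not overlap for 6.24% of all tested genes (2.99% higher and 3.25% lower with RUX). Log2 fold changes (RUX minus untreated) ran from −0.32 to 0.14 with a median of −0.03, beside a median of −0.004 over all tested genes. They were negative for 30 members and positive for 19, where 50.8% of all tested genes were negative.

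The data bound the size of any difference closely. Both ends of the 95% interval were within a 2-fold change for 49 of 49 members, against 80.9% of all tested genes, and within 1.5-fold for 47, against 56.8%. The 2 members outside 1.5-fold were Orc1, with an interval of 0.60 to 1.06, and Ccne2, with one of 0.63 to 1.24. The depth behind these values ran from 693 read pairs, the lowest count of a member in any pool (Ung), to 49027 (Mcm6). The biological coefficient of variation estimated by edgeR had a median of 0.144 over the members and 0.17 over all tested genes.

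**Figure D1:**
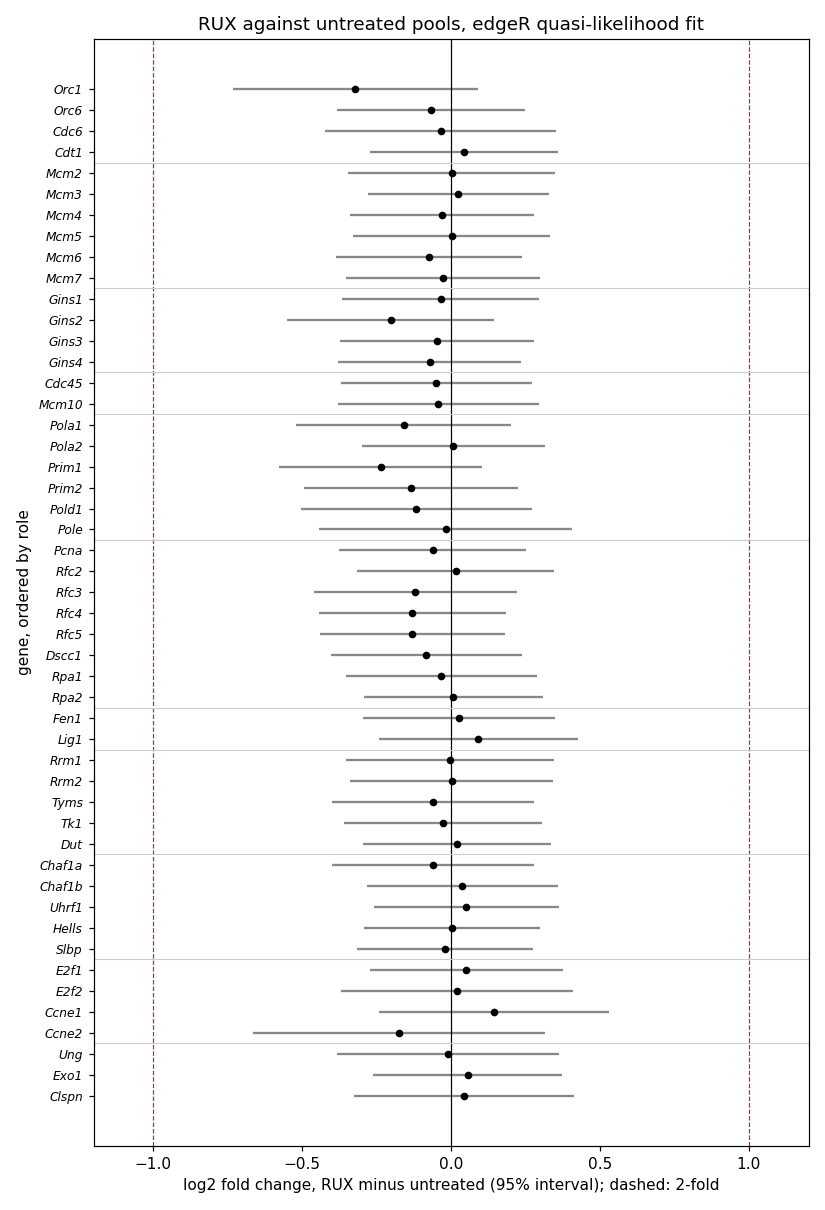
Log2 fold change of each of the 49 replication genes, RUX minus untreated, from edgeR's fit over all tested genes, with genes ordered by role on the vertical axis. Points are estimates, bars are 95% intervals, and all bars include 0 and stay between the dashed lines at 2-fold.

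Promoter sequences were examined because most members are known E2F targets. RefSeq promoter windows on GRCm38.p6, from 250 bases before to 50 bases after a start site, were matched by symbol for 39 of the 49 members. An E2F-type word, TTTCCCGC, TTTCGCGC, TTTGCCGC or TTTGGCGC on either strand with overlaps allowed, lay in a window of 16 of these 39 (41.0%), against 4.62% of 10179 tested genes and 2.6% of all 27025 symbols in the table. By role it was found for 4 of 5 MCM genes and 3 of 4 licensing genes, and for 0 of 5 nucleotide supply genes. The MCM genes with a match are shown as the role group with the largest number of matched genes. The capitals mark the E2F-type words, and each sequence is read 5′ to 3′ on the gene's strand.
Mcm3 (chr1:20820263-20820562, minus strand): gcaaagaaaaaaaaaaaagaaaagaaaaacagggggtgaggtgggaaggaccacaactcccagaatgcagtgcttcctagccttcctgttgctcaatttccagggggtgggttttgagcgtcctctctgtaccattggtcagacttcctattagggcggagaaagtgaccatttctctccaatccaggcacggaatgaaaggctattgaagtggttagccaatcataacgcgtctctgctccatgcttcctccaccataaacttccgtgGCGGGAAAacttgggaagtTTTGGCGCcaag
Mcm5 (chr8:75109259-75109558, plus strand): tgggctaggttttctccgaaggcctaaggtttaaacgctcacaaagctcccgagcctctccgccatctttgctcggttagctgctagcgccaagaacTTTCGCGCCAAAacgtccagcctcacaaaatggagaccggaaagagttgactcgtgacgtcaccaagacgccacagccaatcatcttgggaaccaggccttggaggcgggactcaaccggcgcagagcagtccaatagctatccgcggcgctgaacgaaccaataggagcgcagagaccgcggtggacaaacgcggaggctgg
Mcm6 (chr1:128359656-128359955, minus strand): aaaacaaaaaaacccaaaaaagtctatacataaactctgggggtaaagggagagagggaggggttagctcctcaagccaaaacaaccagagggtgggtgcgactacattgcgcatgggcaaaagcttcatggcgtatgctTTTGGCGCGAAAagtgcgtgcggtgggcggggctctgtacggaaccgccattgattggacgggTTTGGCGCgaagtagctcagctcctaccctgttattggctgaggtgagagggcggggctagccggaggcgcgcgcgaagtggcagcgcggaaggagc
Mcm7 (chr5:138171834-138172133, minus strand): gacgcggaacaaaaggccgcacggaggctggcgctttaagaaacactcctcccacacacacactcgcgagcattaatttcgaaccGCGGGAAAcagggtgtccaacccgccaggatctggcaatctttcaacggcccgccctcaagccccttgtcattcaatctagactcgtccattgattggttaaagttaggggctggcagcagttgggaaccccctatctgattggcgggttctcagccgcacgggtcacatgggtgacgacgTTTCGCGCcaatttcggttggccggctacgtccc
The words in Mcm5 and the first ones in Mcm6 overlap as a head-to-head pair, read on opposite strands. A second listed start site of Mcm7 and the window of Mcm2 held none, and no window was matched for Mcm4. Among 30 G2/M and mitosis genes, a later program of the cell cycle, 26 had a window and 1 of them held an E2F-type word (3.85%). The element TTTGAA, known from promoters of mitotic genes and searched on both strands, showed the reverse, with 20 of 26 mitotic genes (76.9%), 5 of 39 replication genes (12.8%) and 14.5% of tested genes. CCAAT, on either strand, was found for 23 of 39 replication genes (59.0%) and 42.7% of tested genes. These are matches of letters and not measured binding.

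The origin licensing genes include Orc1, the member with the most negative log2 fold change when all pools were kept. Orc1, the large subunit of the origin recognition complex, measured 48.3, 40.5 and 34.1 CPM (counts scaled to TMM-adjusted library size) in untreated pools 1, 2 and 3 and 26.8, 29.9 and 41.5 CPM in RUX pools 4, 5 and 6. RUX pool 6 stood above untreated pools 2 and 3, so the groups overlapped, and the log2 fold change was −0.32 ± 0.19 (SE), with an edgeR adjusted p of 1. It was −0.53 without RUX pool 6, −0.19 without RUX pool 4 and −0.19 without untreated pool 1. Orc6, the small subunit, gave 126 to 162 CPM without and 127 to 149 CPM with RUX. Cdc6, the ATPase that recruits the MCM ring, measured 123, 121 and 119 CPM without and 93.5, 105 and 156 CPM with RUX. The 3 untreated values of Cdc6 were nearly equal and lay inside the range of the RUX values, with a log2 fold change of −0.04 ± 0.18 (SE). Cdt1, the loading factor that is destroyed in S phase, measured 107 ± 12.9 CPM without and 111 ± 10.2 CPM with RUX (each the mean ± SD of n = 3 pools, untreated first, here and in the pairs that follow). Of the 4 licensing genes, 0 passed the test, and their median log2 fold change was −0.05.

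The MCM helicase genes were nearly equal in their group means. Mcm2 measured 407, 419 and 431 CPM without and 334, 424 and 500 CPM with RUX, and both group means were 419 CPM. Mcm5 measured 476, 463 and 531 CPM without and 416, 490 and 565 CPM with RUX, and both means were 490 CPM. In each gene the untreated pools lay between a low RUX pool 4 and a high RUX pool 6. Mcm3 measured 482 ± 7.28 and 490 ± 47.3 CPM, Mcm4 312 ± 17.4 and 305 ± 31.6 CPM, Mcm6 929 ± 30.1 and 883 ± 99.0 CPM, and Mcm7 672 ± 52.4 and 660 ± 88.4 CPM in untreated and RUX pools. Of the 6 genes, 0 passed the test, 3 had positive and 3 negative log2 fold changes (−0.07 to 0.02), and the fold change intervals together spanned 0.77 to 1.27.

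All 6 MCM genes had RUX pool 6 as the highest and RUX pool 4 as the lowest of the 6 pools. Over all tested genes, 7.44% had this pair of extremes. The ratio of RUX pool 6 to RUX pool 4 was 1.21 for Mcm3, 1.23 for Mcm4, 1.25 for Mcm6, 1.31 for Mcm7, 1.36 for Mcm5 and 1.5 for Mcm2. The SD of CPM was larger in the RUX than in the untreated pools for 6 of 6 MCM genes, but for 20 of 49 members and 43.1% of all tested genes. With 3 pools a group, and with genes that share their pools, the difference in spread was not tested.

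Expressed per kilobase of exon (RPKM), the MCM genes kept 1 order in each of the 6 pools: Mcm6, Mcm7, Mcm3, Mcm5, Mcm2, Mcm4. Mean levels over the 6 pools were 312 ± 24.2 RPKM for Mcm6, 278 ± 27.3 for Mcm7, 168 ± 10.6 for Mcm3, 142 ± 15.1 for Mcm5, 124 ± 15.8 for Mcm2 and 85.9 ± 6.43 RPKM for Mcm4 (mean ± SD, n = 6). The pool range of Mcm6 (268 to 335) overlapped that of Mcm7 (240 to 314), whereas Mcm7 stood clear of Mcm3 (152 to 185). The range of Mcm5 (121 to 164) overlapped that of Mcm3 above it and that of Mcm2 (99.1 to 148) below it, and Mcm4 (75.8 to 93.3) stood clear of Mcm2. The RPKM ratio of Mcm6 to Mcm4, whose proteins stand in equal number in the ring, was 3.69 ± 0.0972 in untreated and 3.58 ± 0.0414 in RUX pools. Exon lengths are those of the deposited annotation with untranslated regions included, so levels compared between genes depend on its gene models.

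The helicase partners and the GINS complex did not share the MCM genes' high and low pools throughout. Cdc45, the helicase cofactor, measured 72.0 ± 8.30 CPM without and 69.5 ± 7.43 CPM with RUX, and Mcm10, which helps to activate the helicase, 74.2 ± 1.70 and 72.0 ± 13.5 CPM. The GINS genes encode the 4 subunits of the GINS complex, which joins CDC45 and the MCM ring. Gins2 had the smallest unadjusted p among them and measured 81.3, 60.4 and 89.0 CPM without and 68.3, 62.3 and 69.7 CPM with RUX. Untreated pools 1 and 3 stood above all RUX pools and untreated pool 2 below them, and the difference was −0.20 ± 0.16 (SE) on the log2 scale, with an edgeR adjusted p of 1. Without untreated pool 2 it was −0.34 and without untreated pool 3 −0.0835. Gins4 measured 124 ± 15.1 and 118 ± 4.79 CPM, Gins1 55.9 ± 8.16 and 54.6 ± 4.68 CPM, and Gins3 31.1 ± 3.14 and 30.1 ± 1.83 CPM. Of the 4 GINS genes 0 passed the test, and all 4 log2 fold changes were negative, with a median of −0.06. Gins1, Gins2 and Gins4 had untreated pool 3 as their highest and untreated pool 2 as their lowest pool.

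Of the 6 polymerase and primase genes 0 passed the test, and 5 log2 fold changes were negative, with a median of −0.13. That median rested on single pools, being −0.27 without RUX pool 6, −0.04 without untreated pool 2, −0.08 without untreated pool 1 and 0.02 without RUX pool 4. Prim1, the catalytic primase subunit that lays down RNA primers, measured 184, 126 and 156 CPM without and 132, 124 and 139 CPM with RUX. Untreated pool 1 was high and untreated pool 2 lay within the RUX range, giving −0.24 ± 0.16 (SE) on the log2 scale, with an edgeR adjusted p of 1. Without untreated pool 2 it was −0.36 and without untreated pool 1 −0.0969. Its partner Prim2 measured 92.9 ± 14.3 and 84.6 ± 14.1 CPM. Pola1, the catalytic subunit of polymerase alpha on the X chromosome, measured 124, 156 and 103 CPM without and 101, 117 and 125 CPM with RUX. Its B subunit gene Pola2 did not share the high value of untreated pool 2 and measured 145 ± 14.8 and 146 ± 12.7 CPM. Pold1 and Pole encode the catalytic subunits of the lagging- and leading-strand polymerases. Pold1 measured 152, 166 and 168 CPM without and 108, 155 and 185 CPM with RUX, and Pole 66.0, 67.1 and 53.4 CPM and 46.6, 54.8 and 82.6 CPM. In both genes the whole span of the 6 pools lay between RUX pools 4 and 6, a ratio of 1.71 for Pold1 and 1.77 for Pole.

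Among the clamp, clamp loader and single-strand binding genes, 6 of 8 log2 fold changes were negative, with a median of −0.07 and 0 passing the test. Pcna, the sliding clamp, measured 445, 377 and 455 CPM without and 447, 382 and 395 CPM with RUX. Untreated pool 2 and RUX pools 5 and 6 were its lower pools, and the log2 fold change was −0.06 ± 0.15 (SE). Rfc4 and Rfc5, subunits of the loader that opens the clamp, measured 175 ± 22.2 and 160 ± 10.8 CPM and 255 ± 27.4 and 233 ± 16.5 CPM. Rfc2 gave 323 ± 56.4 and 326 ± 10.8 CPM and Rfc3 97.4 ± 17.2 and 89.6 ± 6.62 CPM. Dscc1, a subunit of the alternative loader tied to sister chromatid cohesion, measured 46.0 ± 5.06 and 43.4 ± 3.54 CPM. Rpa1 and Rpa2 encode subunits of the protein that coats single-stranded DNA. Rpa1 measured 302, 274 and 298 CPM without and 245, 285 and 325 CPM with RUX, and Rpa2 226 ± 24.4 and 227 ± 2.36 CPM.

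Both genes of Okazaki fragment maturation had positive log2 fold changes and neither passed the test. Fen1, the flap endonuclease, measured 334, 352 and 351 CPM without and 302, 346 and 408 CPM with RUX. Lig1, the ligase that seals the fragments, measured 225, 247 and 311 CPM and 270, 264 and 299 CPM, giving 0.09 ± 0.16 (SE) on the log2 scale. Untreated pool 3 was the highest pool for Lig1 and RUX pool 6 for Fen1.

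Nucleotide supply genes differed by less than the spread of the pools. Rrm1 and Rrm2 encode the large and small subunits of ribonucleotide reductase, which makes deoxyribonucleotides. Rrm1 measured 593, 572 and 509 CPM without and 461, 544 and 667 CPM with RUX, with means of 558 and 557 CPM. Rrm2 measured 468, 447 and 407 CPM and 365, 442 and 516 CPM, and both means were 441 CPM. The 2 subunits followed each other through the pools, so that the RPKM ratio of Rrm2 to Rrm1 stayed between 1.42 and 1.49 (1.45 ± 0.0174 in untreated and 1.45 ± 0.0368 in RUX pools). Tyms, which makes thymidylate, measured 200 ± 35.6 and 191 ± 9.71 CPM, and Tk1, the S-phase thymidine kinase, 141 ± 22.8 and 138 ± 13.0 CPM. Dut, which removes dUTP, measured 452 ± 39.5 and 458 ± 49.1 CPM, and it was the only member with RUX pool 4 as its highest pool. Of the 5 genes 0 passed the test, and their median log2 fold change was −0.002.

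Genes of chromatin assembly and maintenance had a median of 0.003 and the narrowest spread between pools of the role groups, a median ratio of highest to lowest pool of 1.26. Slbp, which binds histone mRNA, and Hells, a chromatin remodeler tied to DNA methylation, varied by ratios of 1.13 and 1.18 between the highest and lowest pool, the smallest of the 49 members. Uhrf1, the reader of hemimethylated DNA, measured 277, 334 and 307 CPM without and 300, 303 and 348 CPM with RUX. Chaf1a and Chaf1b, subunits of the histone chaperone CAF-1, measured 108 ± 15.0 and 104 ± 14.6 CPM and 128 ± 13.5 and 131 ± 16.3 CPM. None of the 5 passed the test.

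The G1/S regulators had the widest spread between pools, with a median ratio of highest to lowest pool of 1.59 against 1.35 over the 49 members and 1.52 over all tested genes. Ccne1, which encodes cyclin E1, measured 112, 122 and 110 CPM without and 96.7, 118 and 164 CPM with RUX. Its log2 fold change, 0.14 ± 0.18 (SE) with an edgeR adjusted p of 1, was the largest positive one of the members with all pools kept and came with RUX pool 6 alone above the untreated range. Ccne2, the cyclin E2 gene, measured 59.6, 35.2 and 33.8 CPM without and 28.3, 41.1 and 44.4 CPM with RUX, with untreated pool 1 far above the other 5. The highest pool was 2.11 times the lowest, the widest range of the 49. E2f1, an activator of S-phase genes, measured 61.9, 68.6 and 83.4 CPM without and 68.7, 75.0 and 77.9 CPM with RUX, and E2f2, a related activator, 31.7 ± 6.37 and 32.1 ± 4.69 CPM. Per kilobase, the ratio of Ccne1 to Ccne2 was 4.71 ± 1.41 in untreated and 5.48 ± 0.684 in RUX pools.

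The 3 repair and checkpoint genes were among the less abundant members. Ung, which removes uracil from DNA, measured 29.4 ± 4.80 CPM without and 29.2 ± 4.15 CPM with RUX. Exo1, an exonuclease of mismatch repair, measured 59.8 ± 3.13 and 62.1 ± 8.16 CPM, and Clspn, which encodes the fork checkpoint mediator claspin, 30.7 ± 2.55 and 31.6 ± 5.99 CPM. None passed the test, and the median log2 fold change was 0.04.

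Mean levels per kilobase of exon ranged over the 49 members from 6.25 RPKM for Clspn to 331 RPKM for Pcna, which stood at the 97.9th percentile of tested genes. The median member had 69.2 RPKM, beside 7.55 over all tested genes. After Pcna came Mcm6, Mcm7, Rfc2 (214 RPKM) and Rrm2 (202 RPKM). The low end held E2f2 (6.38), Pole (8.66), Exo1 (11.1) and Orc1 (12.2 RPKM), whose pool ranges overlapped their neighbours in the order. Together the members took 1.03 to 1.08% of counted read pairs in untreated and 0.89 to 1.18% in RUX pools, so the RUX pools held both the lowest and the highest share.

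**Figure D2:**
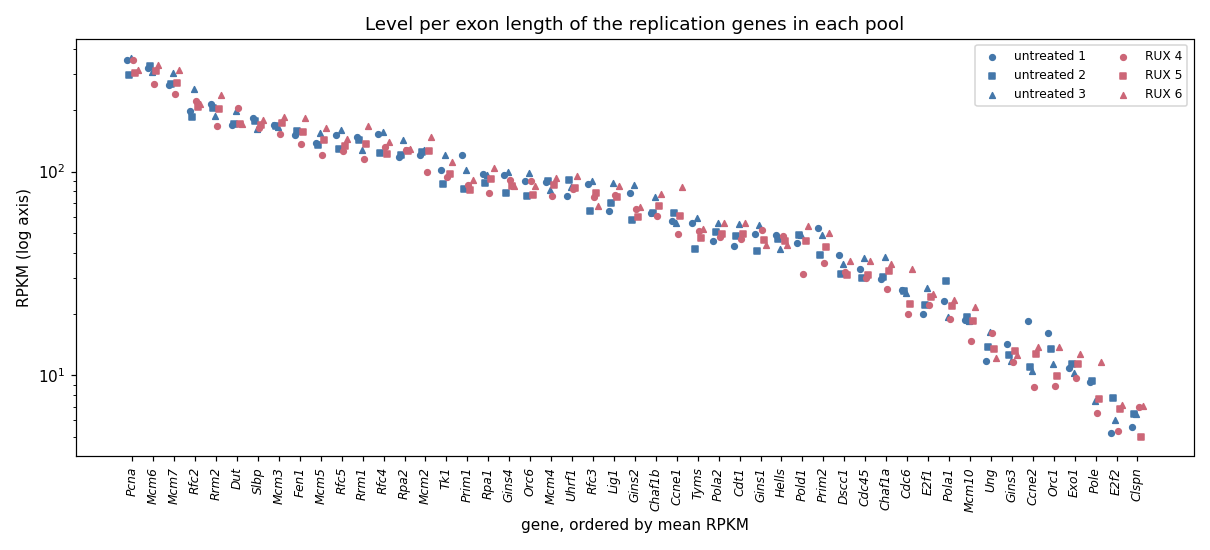
Level of each replication gene in each of the 6 pools, in RPKM on a log axis, with genes ordered by their mean. Blue symbols are untreated and red symbols RUX pools, and for every gene the ranges of both colours overlap.

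The larger differences lay between pools of 1 group. For 36 of 49 members the highest and the lowest of the 6 pools belonged to the same group, where 46.1% of all tested genes showed this. RUX pool 6 was the highest pool for 20 members (background 16.8% of tested genes) and RUX pool 4 the lowest for 24 (background 19.6%). A first block of 17 members, or 34.7%, had both extremes, RUX pool 6 high and RUX pool 4 low, against 7.44% of all tested genes. It held Mcm2 to Mcm7, Mcm10, Cdc6, Pold1, Pole, Rpa1, Fen1, Rrm1, Rrm2, Chaf1b, Ccne1 and Exo1. A second block of 10 members, or 20.4%, was highest in untreated pool 3 and lowest in untreated pool 2, against 6.73% of all tested genes. It held Gins1, Gins2, Gins4, Cdc45, Orc6, Pcna, Rfc2, Rfc3, Tk1 and Tyms. An E2F-type word was in the promoter of 6 of 14 matched genes of the first block (42.9%), close to the 41.0% of all matched members, and of 1 of 6 of the second (16.7%). By single pools, untreated pool 3 was the highest for 18 members (36.7%; background 19.6%) and untreated pool 2 the lowest for 10 (background 15.2%). Untreated pool 1 was the highest for 8 members (background 19.9%), untreated pool 2 for 2 (14.3%), RUX pool 4 for 1 (19.7%) and RUX pool 5 for 0 (9.78%). Untreated pool 1 was the lowest for 9 (17.6%), RUX pool 5 for 4 (8.48%), untreated pool 3 for 2 (21.6%) and RUX pool 6 for 0 (17.5%). These blocks were read from the values and carry no test.

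**Figure D3:**
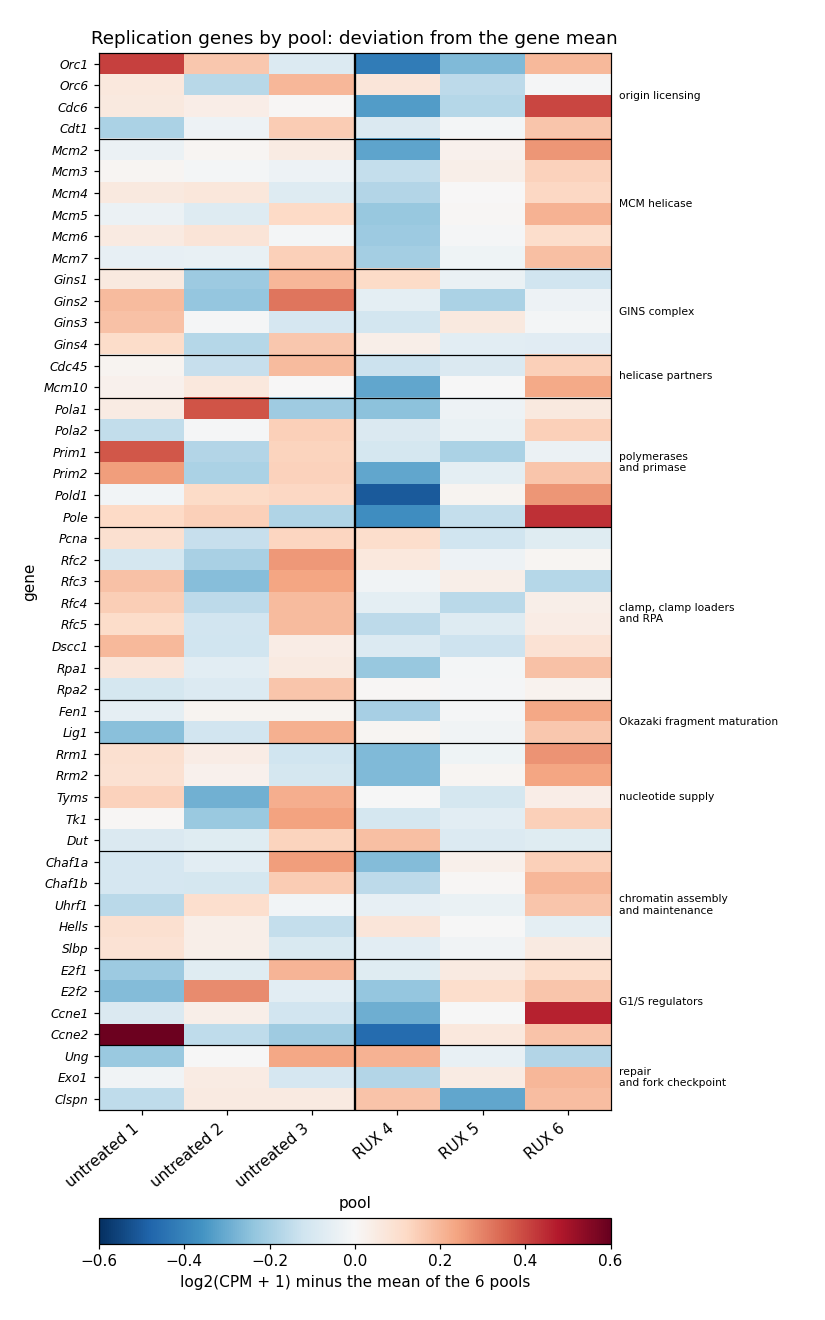
Log2(CPM + 1) of each pool minus the mean of that gene, with genes as rows ordered by role and pools as columns, untreated left of the heavy line. The MCM rows are blue in RUX pool 4 and red in RUX pool 6, while Gins2, Rfc2 and Rfc3 are red in untreated pool 3 and blue in untreated pool 2.

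The blocks differed in the length of their transcripts. Members of the first had a median exon length of 3371 bases (1913 to 7129) and those of the second one of 1366.5 bases (1038 to 3808, the longest being Tyms). Among all tested genes with a mean of at least 20 CPM, RUX pool 6 was the highest pool for 8.29% of 2268 genes under 2000 bases and 27.6% of 3360 genes of 3000 bases or more. Untreated pool 3 was the highest for 37.4% of the short and 8.1% of the long genes. The median ratio of RUX pool 6 to RUX pool 4 was 0.857 for short and 1.15 for long genes over the table, and 1.05 and 1.33 for the 17 short and 21 long members. That of untreated pool 3 to untreated pool 2 was 1.2 and 0.858 over the table, and 1.26 and 0.958 for the members. Members thus stood above the table in every one of these classes, with the same order of short and long genes. The part of transcript length in the blocks was not tested.

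**Figure D4:**
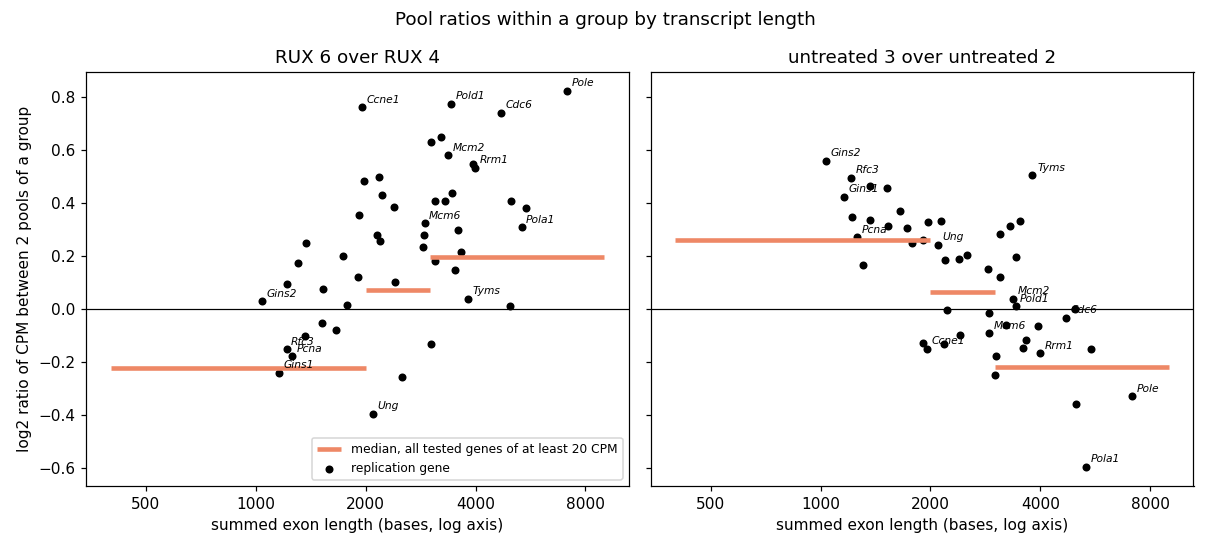
Log2 ratio of CPM between 2 pools of 1 group (left RUX pool 6 over RUX pool 4, right untreated pool 3 over untreated pool 2) against exon length on a log axis. Black points are the 49 replication genes and orange bars the medians of all tested genes of at least 20 CPM under 2000 bases, from 2000 to 3000 and from 3000 bases, which go up with length on the left and down on the right.

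Averaged over the 49 members, log2(CPM + 1) deviated from the gene means by 0.03, −0.04 and 0.07 in untreated pools 1, 2 and 3 and by −0.13, −0.05 and 0.12 in RUX pools 4, 5 and 6. The untreated values thus lay inside the range of the RUX values. Markers of erythroid cells, a fast-cycling lineage within the sorted fraction, had the same high and low pools within the RUX group but the opposite order in untreated pools 2 and 3. Of 15 markers listed, 14 were tested and none of these had 0 counts in a pool. Their mean deviation was 0.18 in untreated pool 2 and −0.14 in untreated pool 3, against −0.33 in RUX pool 4 and 0.46 in RUX pool 6, with 12 of 14 highest in RUX pool 6 and 10 of 14 lowest in RUX pool 4. Their summed level was 6679.9 to 7828.1 CPM without and 6144.6 to 9309.3 CPM with RUX. Stem cell markers did not follow, with mean deviations of 0.16 and 0.04 in RUX pools 4 and 6 and −0.51 in untreated pool 3. Late neutrophil markers had the reverse order within the RUX group and a larger span, 0.58 in RUX pool 4 and −1.18 in RUX pool 6. In the same 2 pools, monocyte and dendritic markers had 0.16 and −0.44 and eosinophil markers 0.60 and −0.32. Lymphoid markers had −0.02 and −0.30 there, and megakaryocyte markers 0.20 and 0.02. Between the groups, the median log2 fold change was 0.35 for stem cell markers (10 of 14 positive) and 0.05 for erythroid markers (9 of 14). It was 0.24 for megakaryocyte markers (7 of 7 positive) and 0.18 for eosinophil markers (6 of 7). Late neutrophil markers had −0.86 (10 of 11 negative), monocyte and dendritic markers −0.20 (9 of 10) and lymphoid markers −0.17 (10 of 13). In each of these lists, 0 markers passed the test. The part of lineage makeup in the replication values was not tested.

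**Figure D5:**
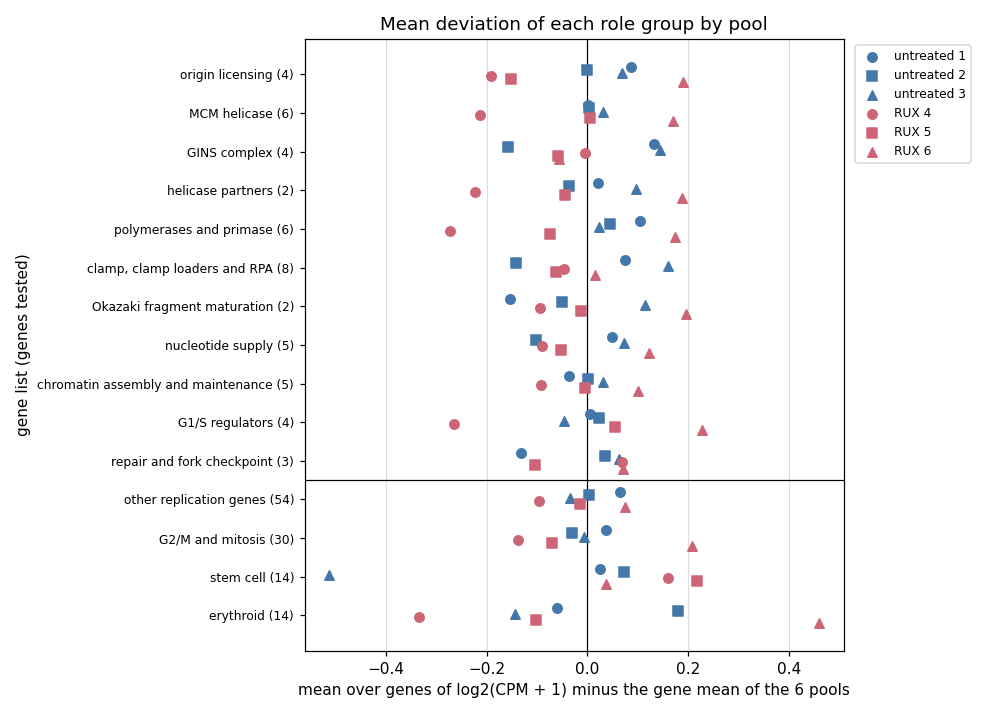
Mean deviation of each list from its gene means, by pool, with the 11 role groups of replication genes above the line and 4 comparison lists below it. Blue marks untreated and red RUX pools, and in 9 of the 11 role groups the red triangle of RUX pool 6 is the rightmost symbol.

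Other genes of replication gave the same picture. Of 55 further replication genes listed, 54 were found and tested, 0 passed the test and 0 had an unadjusted p under 0.05, with 23 positive and 31 negative log2 fold changes and a median of −0.03. The smallest unadjusted p on the lower side were those of Orc4, an origin recognition subunit (log2 fold change −0.36 ± 0.18, SE), and Mcm9, a helicase of recombination repair (−0.34 ± 0.19). On the higher side were Atad5, which unloads PCNA (0.27 ± 0.17), and E2f3, an E2F activator (0.32 ± 0.21), and edgeR's adjusted p was 1 for the 4. Of 30 G2/M and mitosis genes 0 passed the test, 16 were positive and 14 negative with a median of 0.007, and 18 were highest in RUX pool 6. Named from that list by unadjusted p, the ubiquitin-conjugating enzyme gene Ube2c and the mitotic kinase gene Plk1 had log2 fold changes of 0.23 and 0.23, and the kinetochore genes Nuf2 and Bub1 −0.16 and −0.16.

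Library totals were 27354768 to 38691826 counted read pairs in untreated and 46027491 to 48747137 in RUX pools. The sort antigen gene Kit measured 196 to 471 CPM, lowest in untreated pool 3, and Cd34 362 to 529 CPM. Of the lineage antigen genes, Cd3e had 4 to 21 read pairs in a pool and Itgam 10.9 to 17.1 CPM. Untreated pool 3 was the lowest pool for 11 of 14 stem cell markers and the highest for 8 of 11 late neutrophil markers. The summed level of these neutrophil markers was 174, 2304.7 and 2520.7 CPM in untreated pools 1, 2 and 3. In RUX pools 4, 5 and 6 it was 1575.3, 952 and 373 CPM. Untreated pool 2 was thus close to untreated pool 3, and untreated pool 1 was the lowest pool. Without untreated pool 3 and RUX pool 4, edgeR called 0 of 49 members, with 32 positive and 17 negative log2 fold changes and a median of 0.06. Directions within the set therefore rested on single pools: without RUX pool 6 the median was −0.09 with 41 negative, and without RUX pool 4 it was 0.02 with 30 positive.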

How the data were processed

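RNA of Lin-CD117+ bone marrow cells was made into libraries with the SMART-Seq mRNA LP kit, per the labels' protocols, and reads were aligned with STAR to mm10, per the submitters' processing notes. The authors deposited counts, whole numbers of read pairs assigned to each gene's exons by featureCounts 2.0.3 with a UCSC mm10 gene file, per the file headers. No strand or multi-mapping option is recorded, so overlapping genes and genes with near-identical copies (Tyms has a counted pseudogene, Tyms-ps) are less certain. Exon length is a deposited value in bases.

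Pools were matched to columns by library name. edgeR 4.0.16 (R 4.3.3) kept 13411 genes with filterByExpr, which removed at most 0.0358% of a pool's counts, applied TMM scaling (factors 0.938 to 1.03) and tested treatment, two-sided, by the quasi-likelihood test with Benjamini-Hochberg adjustment over all tested genes at 0.05. SEs and 95% intervals were derived from its F values. The labels name no batch, and p-values measure the spread between pools. The procedure was tested on simulated data, with known changes put into 200 genes. These changes were larger than that of any member with all pools kept. The simulation therefore does not bear on differences of the members' size. DESeq2 1.42.0, limma-voom 3.58.1, other scalings and filters, and left-out pools were alternatives.

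The members, role groups and lists were chosen with earlier results of these data known. Genes named with statistics were the MCM genes, Pcna, Rrm1, Rrm2, Cdc6, Cdt1, E2f1, E2f2, Ccne1 and Ccne2, in each role group the 2 with the smallest unadjusted p and the 1 with the highest RPKM, and in the other replication and G2/M lists the 2 of smallest unadjusted p among genes higher and among genes lower with RUX; other members are given as values. The blocks by pool, length classes, the 20 CPM minimum and promoter words were set after the data had been seen. Pclaf was not found by symbol and is not analysed here.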

Additional observations from a re-analysis of the deposited data

How the results depend on the processing

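No paired analysis was possible because the groups share no replicate numbers. With each of 14 alternatives edgeR, DESeq2 or limma-voom called 0 of the 49 members, and the smallest adjusted p of a member in any was 0.972. Over all genes 0 were called except without a low-count filter (14 genes, no member among them). No scaling moved the median of all genes by over 0.1. The median of the members was −0.02 to −0.03 in the 7 alternatives that kept all pools and −0.09 to 0.02 with 1 pool left out. That of the nucleotide supply genes was −0.11 to 0.04 with 1 pool left out, and that of the chromatin genes 0.0941 without untreated pool 3 and RUX pool 4. Of the 49, 9 members kept 1 sign in every alternative run. Limma-voom gave −0.018 for Mcm2, −0.0069 for Mcm5 and −0.011 for Rrm2, and Rrm1 was 0.0078 with DESeq2 size factors, 0.0040 with upper-quartile scaling, 0.0061 without a filter and 0.0070 with DESeq2. Without untreated pool 3 and RUX pool 4, 15 members changed sign, among them the 10 named with statistics: Mcm4 0.00299, Mcm7 0.13, Rrm1 0.059, Cdc6 0.10, Cdc45 0.10, Mcm10 0.0769, Tyms 0.0313, Tk1 0.15, Chaf1a 0.17, Ung 0.00165. With 1 pool left out, 39 members crossed 0, of which 11 not named with statistics lay between −0.299 and 0.167 and the other 28 ranged as follows: Mcm2 −0.14 to 0.15, Mcm3 −0.0422 to 0.10, Mcm4 −0.10 to 0.0524, Mcm5 −0.11 to 0.11, Mcm6 −0.15 to 0.0178, Mcm7 −0.13 to 0.0693, Rrm1 −0.15 to 0.12, Rrm2 −0.13 to 0.13, Cdc6 −0.29 to 0.12, Cdt1 −0.0368 to 0.14, E2f1 −0.0414 to 0.18, E2f2 −0.10 to 0.20, Ccne1 −0.089 to 0.31, Ccne2 −0.32 to 0.14, Orc6 −0.15 to 0.0197, Cdc45 −0.14 to 0.0396, Mcm10 −0.18 to 0.10, Pola1 −0.29 to 0.0186, Lig1 −0.00474 to 0.24, Fen1 −0.0928 to 0.13, Tyms −0.19 to 0.039, Tk1 −0.13 to 0.10, Chaf1a −0.15 to 0.0611, Uhrf1 −0.0226 to 0.13, Slbp −0.0692 to 0.017, Exo1 −0.0385 to 0.16, Clspn −0.0409 to 0.19, Ung −0.12 to 0.12. Without crossing 0, Orc1 ranged from −0.53 to −0.19, Gins2 from −0.34 to −0.0835 and Prim1 from −0.36 to −0.0969. At an unadjusted p under 0.05, Orc1 was reached without untreated pool 3 and without RUX pool 6, and Gins2 and Prim1 without untreated pool 2. The cause was not tested.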
